A study of Mus musculus with 8 samples.

Results

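Expression of 10 genes that serve protein folding and turnover inside mitochondria, or that encode hormones released under mitochondrial stress, was examined in mouse 3134 mammary cells. The genes were chosen by name, with earlier results of these data known. They were the chaperone genes Hspd1, Hspe1, Hspa9 and Dnaja3, the protease genes Lonp1, Clpp and Clpx, the mitochondrial DNA packaging gene Tfam, and the hormone genes Gdf15 and Fgf21. Of the 10, 9 were measured by a probe set annotated with that gene alone, among 19938 genes measured in this way, and Gdf15 was not analysed here. Hspd1 and Hspe1 each had 2 such probe sets, and the one with the higher mean over the 8 arrays stood for the gene.

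All cells were 3134, a line derived from the C127 mammary tumour line of the RIII mouse, with stably integrated A-fos and the tetracycline regulator tTa. A-fos is an engineered partner that binds Jun proteins and so keeps AP-1 off DNA, and its expression is under Tet-Off control, in which tetracycline shuts the transgene off. The 4 groups of 2 arrays were cells titled plus tetracycline with 4 h of 100 nM dexamethasone, the same arm at 0 h, cells titled no tetracycline with 4 h of 100 nM dexamethasone, and that arm at 0 h, all after 48 h in charcoal-treated serum. The treatment protocols name 1 ug per ml tetracycline, and for every sample they give the opposite tetracycline state from its title. The arms are therefore called plus-titled and no-titled, and neither the presence of the drug nor of A-fos is assigned to one of them. The drug and the A-fos state both differ between the arms and together, so their effects cannot be told apart in this design. The labels do not say whether the line is 1 clone or whether the 2 arrays of a group came from separate cultures, so p-values measure the spread between these arrays, which may be technical.

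Most mitochondrial proteins are made in the cytosol, pulled in unfolded by the import machinery and folded inside by HSP60 (Hspd1) with its lid HSP10 (Hspe1) and by the mitochondrial HSP70, mortalin (Hspa9), with its J-protein partner Dnaja3. Damaged or unassembled proteins are removed by the LON protease and by the CLP protease, whose barrel is Clpp and whose unfolding ring is Clpx. Tetracyclines bind bacterial ribosomes, and they can also slow the related ribosomes of mitochondria, which leaves respiratory subunits made in the cytosol without their partners. Stressed mitochondria are known to raise the transcription factors ATF4, ATF5 and CHOP (Ddit3) and, through them, the secreted hormones GDF15 and FGF21.

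Promoter windows that cover 4 of the members are given first, from RefSeq (GRCm38.p6, 250 bases before to 50 after the gene start). Hspe1 and Hspd1 lie head to head on chromosome 1, and their starts at 55088148 and 55087932 are 216 bases apart, so 1 window holds both. RefSeq lists another Hspd1 start at 55088243, past the Hspe1 start. The Lonp1 window is shown for a protease gene near the calling threshold and the Fgf21 window for the hormone. Capitals mark matches to any of 7 motifs searched on both strands.
Hspe1 and Hspd1, chr1:55087898-55088197, Hspe1 strand (+): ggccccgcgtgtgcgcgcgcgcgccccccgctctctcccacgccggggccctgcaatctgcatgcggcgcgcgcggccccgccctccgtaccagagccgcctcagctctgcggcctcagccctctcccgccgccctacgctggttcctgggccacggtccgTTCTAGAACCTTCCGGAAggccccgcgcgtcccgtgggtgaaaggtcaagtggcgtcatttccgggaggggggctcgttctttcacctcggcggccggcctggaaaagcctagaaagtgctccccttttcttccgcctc
Lonp1, chr17:56626854-56627153, strand -: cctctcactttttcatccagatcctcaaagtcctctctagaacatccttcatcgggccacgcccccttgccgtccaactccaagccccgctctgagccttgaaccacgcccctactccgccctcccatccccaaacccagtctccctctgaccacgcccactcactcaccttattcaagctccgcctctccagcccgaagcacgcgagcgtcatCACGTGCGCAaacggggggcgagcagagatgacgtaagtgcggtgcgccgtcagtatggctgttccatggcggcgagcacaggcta
Fgf21, chr7:45615441-45615740, strand -: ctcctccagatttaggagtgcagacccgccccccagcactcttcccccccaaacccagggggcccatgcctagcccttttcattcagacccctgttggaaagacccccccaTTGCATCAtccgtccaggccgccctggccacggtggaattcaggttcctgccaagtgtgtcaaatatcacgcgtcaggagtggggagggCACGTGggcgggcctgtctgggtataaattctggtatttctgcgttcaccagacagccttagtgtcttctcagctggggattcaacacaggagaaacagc

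The shared Hspe1 and Hspd1 window held 3 overlapping matches to heat shock element cores at bases 162 to 179, between both starts. They came from the patterns GAANNTTC, which occurs in 7.86% of 32817 promoter windows of this length, and TTCNNGAA, in 8.51%. Heat shock factors bind repeats of such units. Lonp1 held an E-box (CACGTG, in 7.15% of windows), the site bound by MYC and its relatives, overlapping the core of the site of nuclear respiratory factor 1 (TGCGCA, in 7.75%). Fgf21 held TTGCATCA, a match to the site of ATF4 with C/EBP partners (TGATGNAA, in 3.97%), with its first base at position -139 from the gene start, and an E-box. Of the 8 members with a window, Dnaja3 and Clpx also held TGCGCA, Clpp held TTCNNGAA, and the window of the other Hspd1 start held an E-box. The AP-1 site (TGANTCA, in 7.81%) and the glucocorticoid response element (GNACANNNTGTNC, in 0.475%) had 0 matches in the 9 windows of these 8 members. Letters alone do not show that a factor was bound.

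The 8 arrays had median log2 signals of 5.36 to 5.47, and replicates correlated at 0.9932 to 0.9956 across genes. The labelled tissue was mammary. Of 7 luminal epithelial markers measured, 5 (Krt18, Krt19, Epcam, Cdh1 and Elf3) averaged 4.39 to 5.09 over the 8 arrays, below the median gene at 5.66, and Krt8 (5.86) and Esr1 (6.02) lay just above it. Of 7 fibroblast markers, the collagen gene Col1a2 averaged 11.76, Pdgfra 7.97, Col1a1 6.89, Col3a1 6.57 and Thy1 5.82, while Dcn (3.94) and Lum (2.69) were below the median gene. The summed linear signal of these 7, most of it Col1a2, was 3210 to 3410 at 4 h and 3250 to 3550 at 0 h in the plus-titled arm, against 4750 to 4760 and 4930 to 5100 in the no-titled arm. The list did not shift one way: its median log2 difference was 0.03 at 4 h and 0.02 at 0 h, and 1 of 7 was called in each direction, Col1a2 lower (-0.65 and -0.70) and Pdgfra higher (0.59 and 0.88) in the plus-titled arm. Over all genes, 4.32% were called lower and 5.29% higher at 4 h, and 3.18% lower and 6.2% higher at 0 h. Of 7 basal markers 5 averaged below the median gene, and Acta2 (6.63) and Krt14 (5.79) lay above it. Of 5 endothelial markers 4 averaged below it, and Cdh5 (7.15) lay above it. The leukocyte, pituitary corticotroph and liver markers measured all averaged below it. Of the 7 basal markers 1 was likewise called in each direction, Krt14 lower (-1.41 and -1.39) and Acta2 higher (1.45 and 1.66), with list medians of -0.08 and -0.09. The lists of luminal, leukocyte, endothelial, pituitary corticotroph and liver markers had 0 called members in either arm difference by limma, with 0 to 2 members of a list at an unadjusted p under 0.05. Over all genes, 22.4% had such a p at 4 h and 22.8% at 0 h. The part of these marker differences in the results below was not tested. In RNA from whole cultures, fewer cells of a type and less RNA per cell cannot be told apart.

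The mitochondrial chaperone genes Hspa9, Hspd1 and Hspe1 were lower in the plus-titled arm at both times and Dnaja3 at 4 h, while Lonp1, Clpp, Clpx, Tfam and Fgf21 were not called. Differences were tested with limma over all 19938 genes, and a gene was called at a Benjamini-Hochberg adjusted p under 0.05. At 4 h, 4 of the 9 measured members were lower and 0 higher, where 4.32% of all genes were called lower and 5.29% higher. At 0 h, 3 of 9 were lower and 0 higher, against 3.18% and 6.2% of all genes. The median difference of the 9 was -0.39 at 4 h and -0.25 at 0 h, against -0.01 and -0.02 over all genes. The members were chosen with earlier results of these data known, so these counts and medians carry no test of the set. All the members called were chaperone genes, of which 4 of 4 were called at 4 h and 3 of 4 at 0 h.

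Hspa9, the mitochondrial HSP70, had log2 signals of 10.46 and 10.50 in the plus-titled arm at 4 h, against 11.48 and 11.48 in the no-titled arm. At 0 h they were 10.66 and 10.54 in the plus-titled arm, against 11.55 and 11.54 in the no-titled arm. The groups did not overlap at either time, and the highest plus-titled array lay 0.81 below the lowest no-titled one. The difference was -1.0 ± 0.10 at 4 h (SE; 95% interval -1.23 to -0.77; limma adjusted p = 0.000424) and -0.94 ± 0.10 at 0 h (-1.17 to -0.71; adjusted p = 0.000711), or 1.92-fold lower at 0 h. Hspa9 kept its call at both times in each of the 8 fits that left out 1 array (adjusted p up to 0.0104) and in the 7 other settings (up to 0.00327).

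Hspd1, which encodes the HSP60 folding chamber, read 10.65 and 10.59 in the plus-titled arm at 4 h, against 11.38 and 11.31 in the no-titled arm. At 0 h the values were 10.82 and 10.63 in the plus-titled arm, against 11.43 and 11.31 in the no-titled arm. All 4 plus-titled arrays were below all 4 no-titled arrays, with a gap of 0.48. It was lower by -0.72 ± 0.11 at 4 h (SE; adjusted p = 0.00331) and by -0.64 ± 0.11 at 0 h (adjusted p = 0.00633). The other Hspd1 probe set gave -0.80 and -0.74 in a limma fit over all probe sets with 1 symbol (adjusted p = 0.00219 and 0.00347). At 0 h the call was lost without replicate 1 of the untreated no-titled group (-0.58, adjusted p = 0.0678).

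Hspe1, the lid of that chamber, had 9.55 and 9.96 in the plus-titled arm at 4 h, against 10.29 and 10.30 in the no-titled arm. At 0 h it had 9.74 and 9.65 in the plus-titled arm, against 10.23 and 10.24 in the no-titled arm. Replicate 2 of the treated plus-titled group was the highest of the 4 plus-titled arrays, and it still lay 0.27 below the lowest no-titled array. The differences were -0.54 ± 0.14 at both times (SE; adjusted p = 0.0303 at 4 h and 0.0319 at 0 h), and the other Hspe1 probe set gave -0.49 and -0.54 (adjusted p = 0.0307 and 0.0208). The call depended on single arrays: at 0 h it was lost without any 1 of the 4 untreated arrays (adjusted p 0.0755 to 0.15). At 4 h it was lost without either treated no-titled array (adjusted p = 0.136 and 0.127), without the first treated plus-titled replicate, which left -0.34 (adjusted p = 0.201), and with only the 4 arrays compared (adjusted p = 0.0657). Both genes have relatives and pseudogene copies that their probes may also read.

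Dnaja3, the J-protein that stimulates mitochondrial HSP70, read 7.96 and 7.88 in the plus-titled arm at 4 h, against 8.34 and 8.41 in the no-titled arm. At 0 h it read 8.09 and 7.84 in the plus-titled arm, against 8.09 and 8.24 in the no-titled arm, where the nearest arrays of the arms differed by 3e-04. It was lower at 4 h by -0.46 ± 0.12 (SE; adjusted p = 0.0392), and at 0 h the difference of -0.20 (95% interval -0.47 to 0.06) was not called (adjusted p = 0.366). At 4 h, leaving out any of the 4 treated arrays ended the call (adjusted p 0.105 to 0.197), and so did leaving out either untreated no-titled array (0.0566) and median centring (adjusted p = 0.0559).

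**Figure D1:**
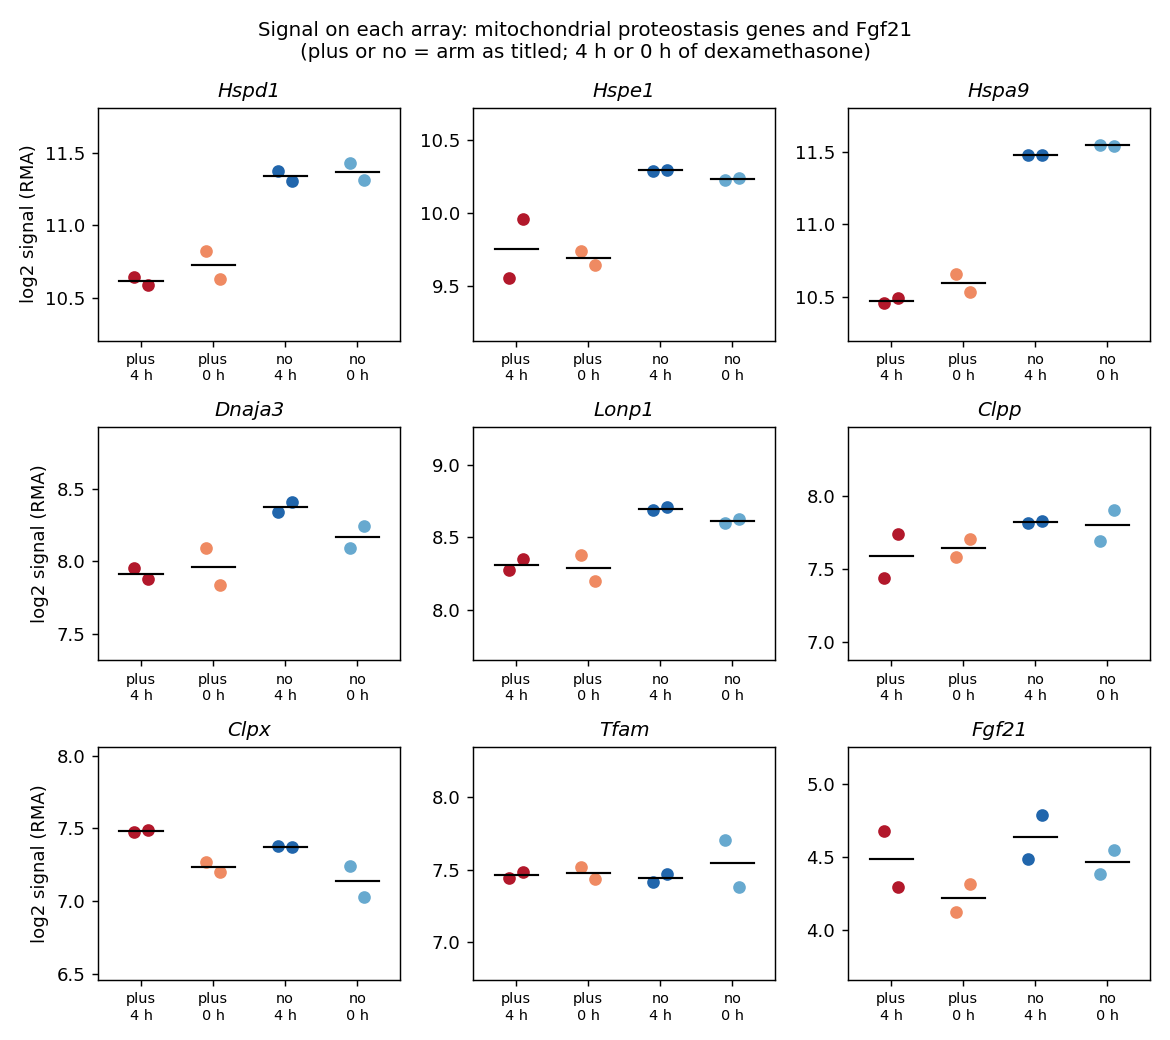
Log2 RMA signal (vertical axis, a span of the same size in each panel) of the 9 measured members on the 8 arrays, by arm as titled and hours of dexamethasone; points are arrays and bars are group means. Hspa9, Hspd1, Hspe1, Dnaja3 and Lonp1 have all 4 plus-titled arrays below all 4 no-titled arrays, and the other panels overlap.

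None of the 3 protease genes was called by limma in either arm difference, and 1 of them, Lonp1, had an unadjusted p under 0.05 at each time, as did 22.4% of all genes at 4 h and 22.8% at 0 h. Lonp1 encodes the matrix protease that degrades oxidised proteins and TFAM. Its signals were 8.28 and 8.35 in the plus-titled arm at 4 h, against 8.69 and 8.71 in the no-titled arm. At 0 h they were 8.38 and 8.20 in the plus-titled arm, against 8.60 and 8.62 in the no-titled arm, again with no overlap. The difference of -0.39 ± 0.11 at 4 h missed the threshold narrowly (SE; 95% interval -0.63 to -0.14; adjusted p = 0.0505), and so did -0.32 ± 0.11 at 0 h by a wider margin (adjusted p = 0.0991). With trend and robust variance Lonp1 was called at both times (adjusted p = 0.0135 and 0.0373), as it was with cyclic loess (0.0298 and 0.0392). At 4 h it was also called without either untreated plus-titled array (adjusted p = 0.0348), without the dimmest 25% of genes (0.0286) and with the mean of each gene's probe sets (0.0494). Separation of all 4 plus-titled arrays below all 4 no-titled arrays was seen for 5 of 9 members, the 4 chaperone genes and Lonp1, and for 9.05% of all genes; for Dnaja3 the gap was only 3e-04.

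Clpp, the proteolytic barrel, had 7.44 and 7.74 in the plus-titled arm at 4 h, against 7.82 and 7.83 in the no-titled arm, a difference of -0.24 (95% interval -0.52 to 0.05; adjusted p = 0.332). At 0 h it had 7.58 and 7.70 in the plus-titled arm, against 7.69 and 7.90 in the no-titled arm, and the groups overlapped (-0.16, adjusted p = 0.538). Clpx, its unfolding partner, was the member with a positive difference at both times. It read 7.47 and 7.49 in the plus-titled arm at 4 h, against 7.38 and 7.37 in the no-titled arm (0.11, 95% interval -0.14 to 0.35; adjusted p = 0.657). At 0 h Clpx had 7.27 and 7.20 in the plus-titled arm, against 7.24 and 7.03 in the no-titled arm (0.10, adjusted p = 0.664).

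Tfam, which coats mitochondrial DNA and starts its transcription, hardly differed between the arms. Its signals were 7.44 and 7.48 in the plus-titled arm at 4 h, against 7.41 and 7.47 in the no-titled arm, a difference of 0.02 (95% interval -0.25 to 0.30; adjusted p = 0.954). At 0 h Tfam had 7.52 and 7.43 in the plus-titled arm, against 7.70 and 7.38 in the no-titled arm (-0.07, adjusted p = 0.804). The 2 untreated no-titled arrays lay farther apart than any pair of group means, and the 95% interval at 0 h was -0.34 to 0.21.

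Fgf21, a hormone secreted mainly by the liver and also by other tissues under mitochondrial stress, was dim throughout, between 4.13 and 4.79, where 25% of genes averaged under 4.34. It read 4.68 and 4.29 in the plus-titled arm at 4 h, against 4.48 and 4.79 in the no-titled arm, and the groups overlapped (-0.15, 95% interval -0.50 to 0.19; adjusted p = 0.651). At 0 h it read 4.13 and 4.32 in the plus-titled arm, against 4.38 and 4.55 in the no-titled arm (-0.25, adjusted p = 0.403). RMA compresses folds at such low signals, so a change of Fgf21 may not have been detectable.

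**Figure D2:**
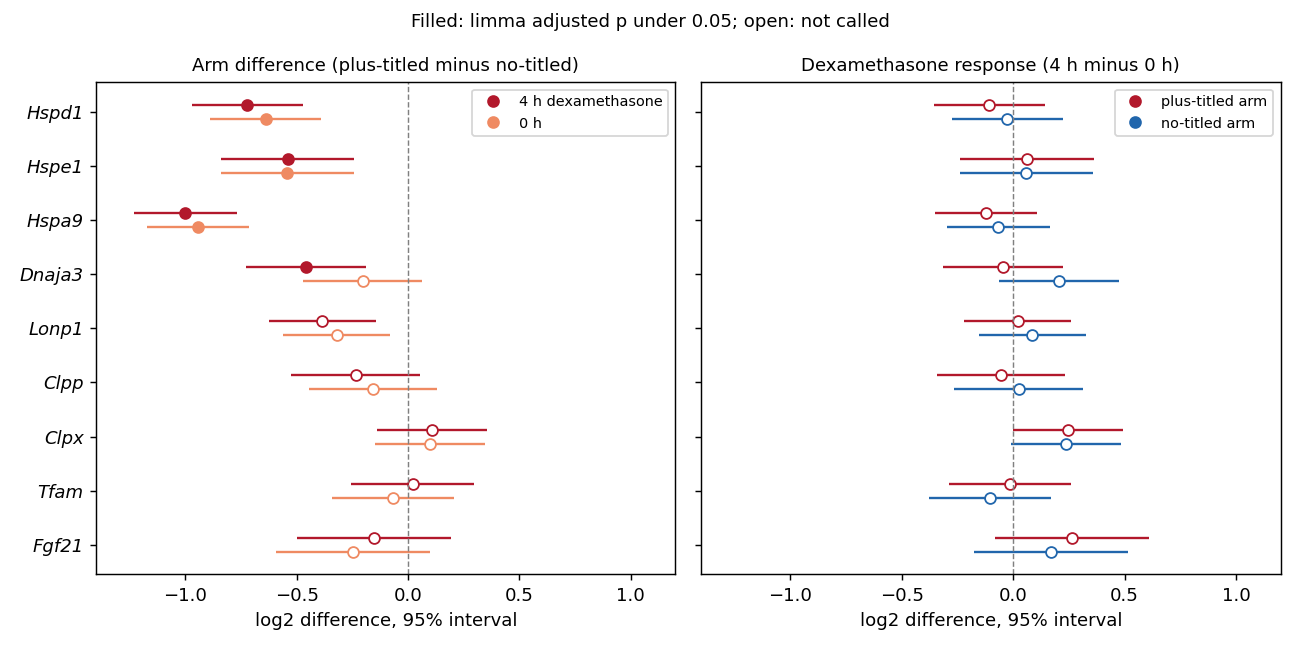
Log2 differences with 95% intervals (horizontal axis) of the 9 measured members, as the arm difference at 4 h and 0 h (left) and as the dexamethasone response of each arm (right); filled points had a limma adjusted p under 0.05. Hspa9 at -1.0 and -0.94, Hspd1 and Hspe1 lie left of 0 at both times, and every point on the right is open.

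None of the 9 members was called by limma for a response to 4 h of dexamethasone, a synthetic glucocorticoid, in either arm, nor for the difference between the arms' responses. Among all genes, 1.1% were called in the plus-titled arm, 1.43% in the no-titled arm and 0.00502% for the difference. At an unadjusted p under 0.05, 0 of 9 members passed in each of the 3 comparisons, against 9.98%, 9.1% and 5.11% of all genes. The member nearest to a call was Clpx, which was above its untreated pair on both treated arrays in each arm, by 0.25 ± 0.11 in the plus-titled arm (SE; adjusted p = 0.504) and by 0.24 ± 0.11 in the no-titled arm (adjusted p = 0.581). Its 95% intervals were -0.0011 to 0.49 and -0.01 to 0.48. Groups that do not overlap in this direction were seen for 16.9% and 21.1% of all genes. Responses of the 4 chaperone genes ran from -0.12 to 0.06 in the plus-titled arm and from -0.07 to 0.21 in the no-titled arm. For Hspa9 the 95% intervals of -0.35 to 0.11 and -0.30 to 0.17 leave out any hormone response as large as its arm difference. The difference of the responses was farthest from 0 for Dnaja3, at -0.25 (95% interval -0.63 to 0.13; adjusted p = 0.997), so its call at 4 h and not at 0 h is not shown to be a difference between the times.

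The pattern of Hspa9 over the 8 arrays was most like that of Lars, a leucyl-tRNA synthetase gene (Pearson r = 0.998), Shmt2, the mitochondrial serine hydroxymethyltransferase gene (0.998), and Aldh1l2, a mitochondrial folate enzyme gene (0.996). These were the top 3 of 2752 genes with a range of group means at least 0.5 times that of Hspa9. For Hspd1 the top 3 of 5758 were Acsl5, an acyl-CoA synthetase gene (0.998), Mybbp1a, a nucleolar protein gene (0.996), and Met, the receptor gene of hepatocyte growth factor (0.995). The 8 points fall into the 2 arms, so these correlations describe mainly the arm difference and carry no test. Shmt2 itself had 8.56 and 8.60 in the plus-titled arm at 4 h, against 9.78 and 9.83 in the no-titled arm, a difference of -1.23 ± 0.11 (SE; adjusted p = 0.000176). Shmt2 was picked for its likeness to Hspa9, so this difference follows from the choice and is no separate evidence. Shmt2 and Aldh1l2 also belong to the list of ATF4 and CHOP genes below.

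The members were set beside lists of their pathway, which were also chosen with earlier results of these data known, so their counts carry no test. Of all genes, 4.32% were called lower and 5.29% higher at 4 h, and 3.18% lower and 6.2% higher at 0 h. The share of all genes lower at both times was not computed, and it cannot exceed the 3.18% lower at 0 h. Genes of the ATF4 and CHOP response were lower in the plus-titled arm, with 10 of 18 lower and 0 higher at 4 h (median -0.75), 12 lower and 0 higher at 0 h (median -0.75), and 10 of them lower at both times. Leaving out 1 array gave 10 at 4 h and 10 to 12 at 0 h. Atf4, the transcription factor of the pathway, had 8.50 and 8.46 in the plus-titled arm at 4 h, against 9.27 and 9.37 in the no-titled arm. It was lower by -0.84 ± 0.10 at 4 h (SE; adjusted p = 0.00104) and by -0.67 ± 0.10 at 0 h (adjusted p = 0.00324). Atf5, a factor known to drive mitochondrial chaperone genes in mammalian cells, was lower by -0.99 ± 0.16 at 4 h (adjusted p = 0.00434) and by -0.93 ± 0.16 at 0 h (adjusted p = 0.00606). Ddit3, which encodes CHOP, had 5.74 and 5.73 in the plus-titled arm at 4 h, against 6.03 and 5.92 in the no-titled arm, which was not called (-0.24, adjusted p = 0.248). At 0 h Ddit3 was lower by -0.75 ± 0.12 (adjusted p = 0.00307). The largest differences of the list were those of the cystine transporter gene Slc7a11 (-2.27 at both times), Aldh1l2 (-1.88 at 4 h and -1.94 at 0 h) and the pseudokinase gene Trib3 (-1.38 and -1.18). Under dexamethasone 2 members of this list rose and 1 fell in each arm, where 0.823% of all genes rose and 0.281% fell in the plus-titled arm and 1.03% rose and 0.401% fell in the no-titled arm: the mTORC1 inhibitor gene Ddit4 rose by 2.28 in the plus-titled arm and by 1.74 in the no-titled arm, and Cebpb rose by 0.93 and 0.95. Trib3 fell in the plus-titled arm (-0.65) and Ddit3 in the no-titled arm (-0.69), and both calls were lost in 4 or more of the 8 fits without 1 array. The 2 that rose became 1 in the plus-titled arm without its first untreated or second treated array, and 1 in the no-titled arm without its first untreated array. The difference of the responses was called for 0 of 18 by limma, with 2 at an unadjusted p under 0.05, against 5.11% of all genes.

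Genes of mitochondrial protein import were lower for 8 of 22 members at 4 h and 3 of 22 at 0 h. The shares of all genes called lower were 4.32% and 3.18%. In the import list 0 were higher, with medians of -0.15 and -0.11. The 3 lower at both times were Timm8a1, a small intermembrane chaperone gene (-1.31 ± 0.13 and -1.08 ± 0.13, SE; adjusted p = 0.000299 and 0.000861), Tomm40, the outer membrane channel gene (-0.60 and -0.49), and Timm10 (-0.57 and -0.42). Tomm70a, a receptor for incoming proteins, was lower at 4 h by -0.68. The import count at 4 h depended on single arrays: it was 1 or 3 without a treated no-titled array (replicate 1, then 2), 3 without either treated plus-titled array and 4 without either untreated no-titled array. At 0 h it was 1 without either untreated no-titled array or without the first untreated plus-titled one. Among the other mitochondrial chaperones and cofactors, 1 of 9 was lower at 4 h, the HSP90 relative Trap1 (-0.40, adjusted p = 0.0436), and 0 of 9 at 0 h. At 0 h 4 of the 9 had an unadjusted p under 0.05, as did 22.8% of all genes. Of 16 other proteases and prohibitins, the prohibitin gene Phb2 was lower at both times (-0.64 and -0.55, adjusted p = 0.00447 and 0.00994). Spg7, a subunit gene of an inner membrane protease, was higher at 0 h (0.42, adjusted p = 0.0325), where 6.2% of all genes were called higher. Leaving out any of the 4 treated arrays or either untreated no-titled array ended the Trap1 call, 6 of 8 such fits ended that of Spg7, and leaving out either untreated no-titled array ended that of Phb2 at 0 h.

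Genes of mitochondrial DNA maintenance and transcription, the process in which Tfam acts, included 2 of 15 lower at 4 h, Lrpprc (-0.54) and Tfb1m (-0.39). The share of all genes called lower at 4 h was 4.32%. At 0 h 0 of 15 were lower, and 2 had an unadjusted p under 0.05, as did 22.8% of all genes. The 2 calls at 4 h were both lost without either treated no-titled array or without the second treated plus-titled one. Of 14 mitochondrial translation factors, 0 were called at either time. At each time 3 had an unadjusted p under 0.05, against 22.4% of all genes at 4 h and 22.8% at 0 h. Among 10 regulators of mitochondrial biogenesis, Myc was lower by -1.23 ± 0.12 at 4 h and by -1.45 ± 0.12 at 0 h (SE; adjusted p = 0.000328 and 0.00014). Pprc1 (-0.60) and Nrf1 (-0.47) were lower and Ppargc1a (0.54) higher at 4 h, where 4.32% of all genes were called lower and 5.29% higher. The 3 lower biogenesis genes became 1 without either treated plus-titled array or without the first treated no-titled one, and Ppargc1a lost its call without the second replicate of either treated group. Of 7 genes for the kinases that phosphorylate eIF2-alpha and so raise ATF4 translation, for the relay protein DELE1 and for the phosphatase subunits, 3 were higher at 0 h, Eif2ak1 (0.51), Eif2ak2 (0.57) and Eif2ak4 (0.53). The share of all genes called higher at 0 h was 6.2%. At 4 h 0 of the 7 were called higher, and Ppp1r15b was lower (-0.53). Plus-titled and no-titled means at 4 h were 7.72 and 7.43 (Eif2ak1), 7.53 and 7.07 (Eif2ak2), and 7.02 and 6.80 (Eif2ak4). Over all genes the difference of the responses was below 0 for 10620 of 19938 (median -0.01), and it was so for 18 of 22 import genes (median -0.12). It was below 0 for all 7 of these genes (median -0.19) but called for 0 of them. A difference between the times is therefore not shown for these genes. Without either untreated no-titled array 0 of these kinase genes were called at 0 h, and 1 without the first untreated plus-titled array. Ppp1r15b lost its call without the first treated no-titled or the second treated plus-titled array.

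The list of cytosolic heat shock genes had medians of 0.07 at 4 h and 0.01 at 0 h. Among all genes, 5.29% were called higher and 4.32% lower at 4 h, and 6.2% higher and 3.18% lower at 0 h. Of the 10 heat shock genes measured, Cryab, a small heat shock protein gene, was higher at both times (0.75 and 0.85, adjusted p = 0.00289 and 0.00164). Hspb8 was lower at 4 h (-0.49), which was lost in 3 of 8 fits without 1 array. The inducible HSP70 gene Hspa1a differed by -0.29 at 4 h (adjusted p = 0.22) and 0.01 at 0 h (adjusted p = 0.982). Of 8 receptor genes for GDF15 and FGF21, Fgfr1 was higher at 4 h (0.40, adjusted p = 0.0438; lost in 6 of 8 fits without 1 array) and 0 were called at 0 h, with 2 at an unadjusted p under 0.05. Of all genes, 22.8% had an unadjusted p under 0.05 at 0 h. The FGF21 co-receptor gene Klb averaged 4.46 and the GDF15 receptor gene Gfral 2.57 over the 8 arrays, both under the median gene. The 13 protein genes of mitochondrial DNA were not analysed here. No list other than that of ATF4 and CHOP had a called member in either dexamethasone response by limma. In these lists 0 to 3 genes had an unadjusted p under 0.05, against 9.98% of all genes in the plus-titled arm and 9.1% in the no-titled arm. The most were 3 of 10 heat shock genes and 3 of 22 import genes in the plus-titled arm, and 3 of 10 biogenesis regulators in the no-titled arm. Some alternative settings called 1 heat shock gene higher in each arm.

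**Figure D3:**
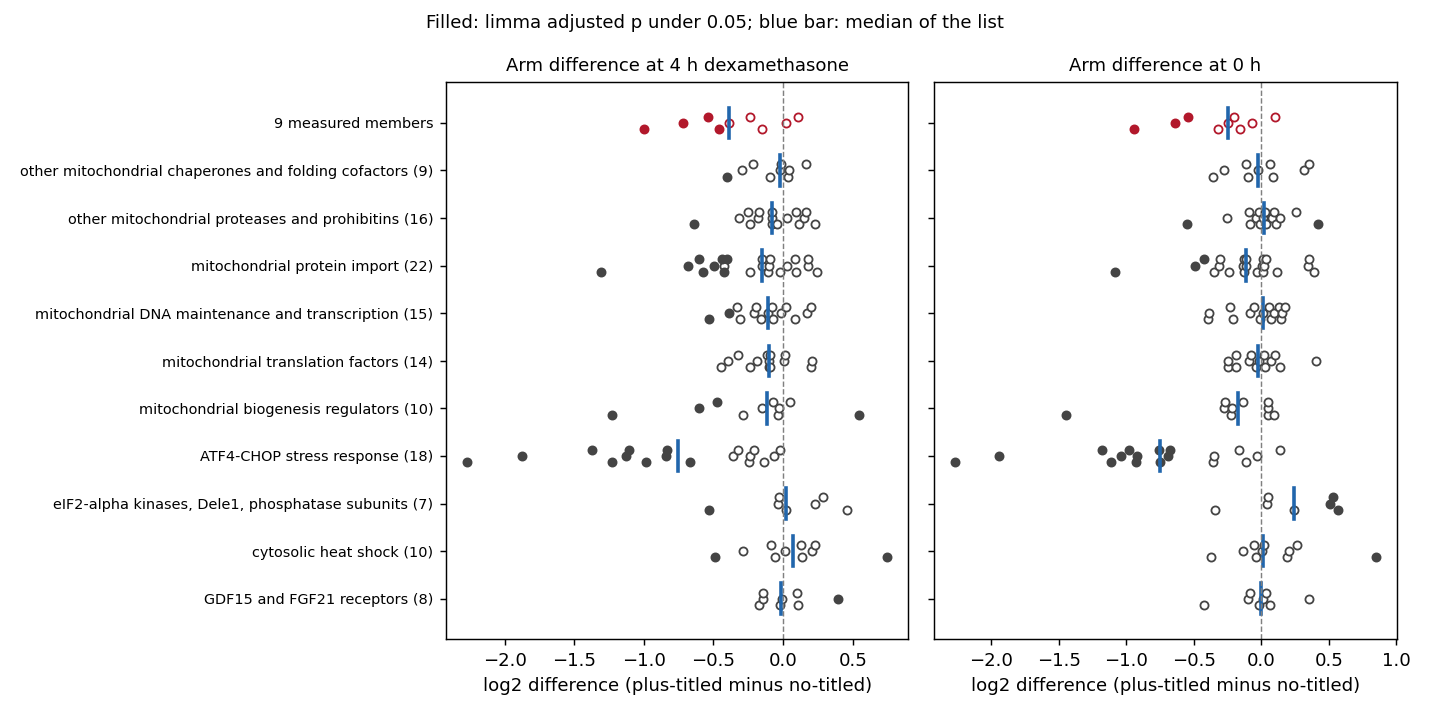
Log2 arm difference (horizontal axis, plus-titled minus no-titled) at 4 h (left) and 0 h (right) of each measured gene, with 1 row per list; red points are the 9 measured members, filled points had a limma adjusted p under 0.05 and blue bars are list medians. The ATF4 and CHOP list has medians of -0.75 at both times. The other lists have medians nearer to 0, with called genes on both sides of 0 at each time.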

How the data were processed

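RNA from 8 samples (4 groups of 2) was hybridised to Affymetrix arrays. The deposited values are log2 expression values of 28888 probe sets that the authors made with RMA in Affymetrix Expression Console, per the submitters' processing notes, which name no version. RMA equalises array distributions, so a shift common to most genes is hidden. The number of arrays limits the precision.

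Probe sets were named from the platform annotation, with symbols updated by gene number (21698 of 21789 probe sets with 1 symbol). The probe set with the highest mean stood for each of 19938 genes. Group means were compared with limma 3.58.1 in R 4.3.3 (lmFit, eBayes) in 1 fit of the 8 arrays, with 2-sided p-values adjusted by Benjamini-Hochberg across the genes. The model had 4 residual degrees of freedom. It was also run on simulated data with independent noise drawn from its own variance estimates, so that run does not test its assumptions. Members, lists and motifs were chosen with earlier results of these data known. Named list genes were up to 3 called members with the largest difference in a contrast, with Atf4, Atf5 and Ddit3 in every case; Hspa1a, Klb, Gfral and the marker genes named were chosen after their values were seen. Likeness was ranked by Pearson r over the 8 arrays for the 2 members with the widest range of group means. Alternatives were trend and robust variance, only the arrays compared, a replicate block, a filter on the dimmest 25% of genes, median centring, cyclic loess, the mean of a gene's probe sets, and each array left out. Motifs were searched in RefSeq promoter windows (GRCm38.p6).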

Additional observations from a re-analysis of the deposited data

How the results depend on the processing

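Over 666 member differences recomputed under alternatives, 642 kept their side of the threshold, 16 lost a call, 8 gained one and 0 reversed. The 8 gains were all of Lonp1. Leaving out 1 array gave 1 to 3 members lower at 0 h (1 without the first untreated no-titled array) and 2 to 5 at 4 h (2 without either treated no-titled array or the first treated plus-titled one), and 0 higher; in the other settings there were 3 to 4 and 3 to 5. A change of sign counted as reversed only where the difference was called with all arrays or under the alternative. Uncalled differences could change sign: without 1 array, that of Tfam at 0 h (-0.07 with all arrays) ran from -0.23 to 0.09. No member was called under any alternative for either dexamethasone response or their difference, so most of the 666 had no call to lose. The replicate block left 3 members lower at 0 h and 4 at 4 h and changed no call; same-numbered arrays deviated together only weakly (r -0.0191 to 0.133), and nothing in the labels says that the numbers pair the samples. Over all genes, leaving out 1 array gave 413 to 1103 higher and 176 to 549 lower at 0 h (1236 and 634 with all arrays), and 359 to 1149 higher and 295 to 979 lower at 4 h (1054 and 862). For the dexamethasone response these fits gave 68 to 146 higher and 12 to 41 lower in the plus-titled arm (164 and 56), 113 to 211 higher and 21 to 80 lower in the no-titled arm (205 and 80), and 0 to 2 lower for the difference of the responses. With trend and robust variance there were 249 higher and 121 lower in the plus-titled arm, 164 lower in the no-titled arm, and 4 higher and 7 lower for the difference. Only the arrays compared gave 31 and 52 lower in the plus-titled and no-titled arms, and median centring 1 higher for the difference; the cause was not tested. Fewer arrays leave less precision by construction. Dim signal limits what can be said of Fgf21.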
